A study of Homo sapiens and Mus musculus with 4 samples.

Results

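The genes described here are 10 genes of the neutrophil and its precursors: MPO, ELANE, PRTN3, LTF, CAMP, S100A8, S100A9, ITGAM, SPI1 and GFI1. They were chosen by name, and a peak was counted for a gene where it overlapped the gene's span or the 20 kb on either side of it. The 10 are part of 20037 human protein-coding genes, and all 10 were found in the gene table. Chromatin bound by ATF4 was precipitated and sequenced (ChIP-seq) from KG1a, an established line of human acute myeloid leukaemia cells kept in medium with 20% fetal bovine serum, and from the bone marrow of C57BL/6 mice. A ChIP library made with an antibody to ATF4 and an input library made without it came from each source, so there were 4 libraries, and no treatment or genetic change is named for any of them. Each source is represented by 1 peak list, of 873 peaks in KG1a and 83088 peaks in mouse bone marrow, with no peak height and no read depth. KG1a is 1 line, bone marrow is a mixture of cell types, and a peak list holds no expression, so the labelled cell types could not be checked against their markers.

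Neutrophils are made in the bone marrow and fill their granules in a fixed order. Myeloperoxidase and the serine proteases are packed into primary (azurophil) granules at the promyelocyte stage, and lactoferrin and cathelicidin into secondary (specific) granules later. The transcription factors PU.1, encoded by SPI1, and GFI1 act early in this lineage. ATF4 is a basic leucine zipper factor made under amino acid shortage and other stress, and together with C/EBP proteins it recognises a composite element that starts with TGATG.

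No KG1a peak lay at any of the 10 genes, where 3.98% of all protein-coding genes had one. In mouse, 9 peaks lay in the 4 windows of the 5 orthologues that could be placed, and 53.1 to 73.9% of tiled windows of the same lengths had at least 1 peak. Tiled windows held on average 1.29 peaks at 40 kb, 2.24 at 70 kb and 2.55 at 80 kb. The Elane and Spi1 windows held more peaks than that, and the other windows fewer. No difference from the background is read from either count. The Spi1 window held 4 peaks, 3 of them wider than 1 kb, and the Elane window held 3 short ones. The Mpo window and the window shared by S100a8 and S100a9 held 1 short peak each. With 1 library per group these are counts from single lists, and no test between groups or between the sources was made.

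The first sequence shown is the human CAMP promoter, the only one of the 7 genes with a promoter entry in which TGATGCAA, the first 8 bases of TGATGCAAT, was found. It is followed by stretches of 4 promoters that hold the same 8 bases inside a KG1a peak. They are part of the 7 promoter entries with these bases that a KG1a peak overlaps. The others, of S100PBP, LOC102724467 and LOC124909370, are not printed. CAMP has no peak there, so the lines set a promoter with the letters and no listed peak beside promoters that have both. The latter were picked because they have a peak. Of all 304 promoter entries with these 8 bases, a KG1a peak overlaps only those 7, so a promoter with the letters and no peak is the common case. Capitals mark the 8 bases, which read TTGCATCA on the strand of each gene, the reverse complement. The sequences are from RefSeq (GRCh38.p14) and are written 5′ to 3′ along the gene. The CAMP stretch is chr3:48223245-48223494 (plus strand), CHAC1 is chr15:40953236-40953295 (plus), HERPUD1 is chr16:56931940-56931999 (plus), AARS1 is chr16:70289660-70289719 (minus) and TARS1 is chr5:33440941-33440989 (plus).
CAMP: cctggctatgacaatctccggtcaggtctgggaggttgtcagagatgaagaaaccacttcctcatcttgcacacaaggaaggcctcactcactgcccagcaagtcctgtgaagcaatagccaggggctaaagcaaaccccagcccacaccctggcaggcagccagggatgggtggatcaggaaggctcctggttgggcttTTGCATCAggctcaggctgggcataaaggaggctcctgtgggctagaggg
CHAC1: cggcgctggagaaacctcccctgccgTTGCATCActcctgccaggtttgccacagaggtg
HERPUD1: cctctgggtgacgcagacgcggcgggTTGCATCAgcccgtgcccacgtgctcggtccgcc
AARS1: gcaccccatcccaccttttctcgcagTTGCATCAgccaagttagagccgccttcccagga
TARS1: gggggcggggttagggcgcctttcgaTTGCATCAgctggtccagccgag

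Promoters of 7 of the 10 genes were in the RefSeq table, with 13 entries of 300 bases, 250 before and 50 after a start. Those of MPO, ELANE and SPI1 were not matched. The motifs were searched on both strands. None of the 13 entries, for 0 of 7 genes, held TGATGNAAT, which 0.991% of all 35116 promoters contain, or the nested TGATGCAAT (0.236% of all). The cyclic AMP response element TGACGTCA was also in 0 of 7 genes, against 1.85% of all promoters. The shorter TGATGCAA, tried after the data were seen and contained in TGATGCAAT but not in every form of TGATGNAAT, was in 1 of 7 genes, CAMP, and in 0.866% of all promoters. In CAMP it begins 50 bases before the start site, at chr3:48223445-48223452. The core TGATG alone was in CAMP and S100A8, 2 of 7 genes, a share near the 32.9% of all promoters.

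A KG1a peak overlapped 71 of the 35116 promoter entries and 0 of the 13 entries of these genes. Of those 71, 7 held TGATGCAA, 9.86%, against 0.866% of all promoters, and 3 held TGATGNAAT, 4.23%, against 0.991%. TGATGCAAT was in 1 of the 71, 1.41%, against 0.236% of all. The core TGATG was in 26 of the 71, 36.6%, near the 32.9% of all promoters. TGACGTCA was in 1 of the 71, 1.41%, against 1.85% of all. These shares were not tested. Of the promoters whose stretches are printed, CHAC1, which encodes a glutathione-degrading enzyme, had its copy 209 bases before the start. HERPUD1, a gene of endoplasmic reticulum protein degradation, had it 176 bases before, and AARS1, the alanyl-tRNA synthetase gene, 187 bases before. In TARS1, the threonyl-tRNA synthetase gene, it began at base 3 of the transcript. A match of letters is a description and does not show a binding site.

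In KG1a, 0 of the 10 genes had a peak in its window, where 3.98% of all protein-coding genes (798 of 20037) had one. At that share 0.398 of 10 genes would be counted, so a count of 0 cannot show a deficit. Of the 10, only CAMP had a peak within 100 kb, where 9.93% of all genes had one. The distance from the gene span to the nearest peak ran from 75.6 kb for CAMP to 2.71 Mb for S100A8, with a median of 374 kb. Over 19974 protein-coding genes on chromosomes with a peak the median was 961 kb, and 7 of the 10 genes lay nearer than that. Within 1 Mb, 7 of the 10 had a peak, where 51.3% of those 19974 genes had one, and the difference was not tested. ELANE with PRTN3, LTF with CAMP, and S100A8 with S100A9 shared a nearest peak, so the 10 distances came from 7 different peaks.

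**Figure D1:**
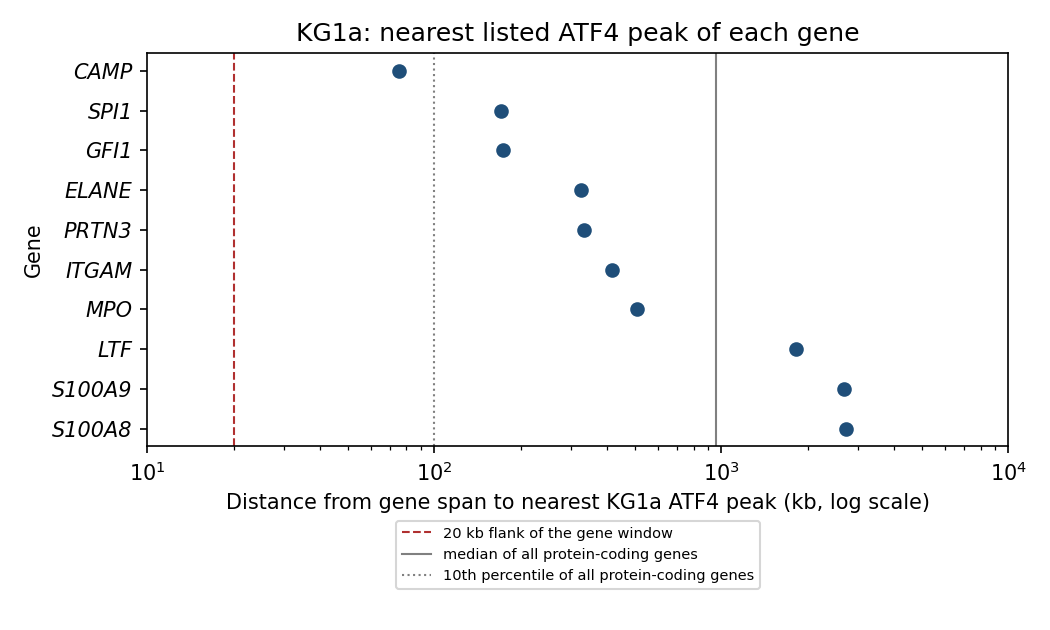
Distance in kb (log scale) from the span of each of the 10 genes to its nearest KG1a ATF4 peak, 1 point per gene. The dashed line marks 20 kb, and the grey lines the 10th percentile (100 kb, dotted) and the median (961 kb, solid) of all protein-coding genes. All 10 points lie beyond 20 kb, and LTF, S100A8 and S100A9 lie beyond the median.

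Among the primary granule genes, MPO encodes myeloperoxidase, the haem enzyme that makes hypochlorous acid from hydrogen peroxide. It spans chr17:58269855-58280935 (GRCh38, as are all human positions here). Its nearest listed peak was 508 kb away on the high-coordinate side, at chr17:58788683-58789031, and 32.7% of protein-coding genes had a peak as near. That peak lies inside PPM1E, a protein phosphatase gene, and the next closest genes are RAD51C, at 53.1 kb, and TEX14, at 96.6 kb. The second nearest peak to MPO was 2.55 Mb away, so 1 peak lay within 1 Mb of the gene.

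ELANE, which encodes neutrophil elastase, and PRTN3, which encodes proteinase 3, are neighbours on chromosome 19. ELANE spans 852303 to 856243 and PRTN3 840999 to 848175. Both have the same nearest peak, at chr19:1180909-1181256, 325 kb from ELANE and 333 kb from PRTN3. As many as 23.6% and 23.9% of protein-coding genes had a peak that near. The peak lies outside protein-coding genes, 6.64 kb from SBNO2, 24.5 kb from STK11, the gene of a tumour-suppressor kinase, and 47.0 kb from CBARP. For each gene 3 peaks lay within 1 Mb.

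The secondary granule genes LTF and CAMP both lie on chromosome 3. LTF encodes lactoferrin, an iron-binding protein, and spans 46435645 to 46485234. CAMP encodes cathelicidin, the precursor of the antimicrobial peptide LL-37, and spans 48223495 to 48225485. Their nearest peak is the same one, at chr3:48301055-48301389, 75.6 kb from CAMP and 1.82 Mb from LTF. It is 335 bp wide and lies over the high-coordinate end of NME6, a gene of the nucleoside diphosphate kinase family, with its centre 145 bp from that end, and overlaps the NME6 promoter entry, which does not hold TGATG. SPINK8, at 5.45 kb, and ZNF589, at 30.1 kb, are the next closest genes. CAMP was the nearest of the 10 genes to a peak, and 8.03% of all protein-coding genes had one as near. LTF had no peak within 1 Mb.

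S100A8 and S100A9 encode the subunits of calprotectin, a calcium- and zinc-binding complex abundant in the cytosol of neutrophils. They lie on chromosome 1, at 153390032 to 153422583 and 153357854 to 153361023, and were the genes farthest from a peak. Their nearest one, at chr1:150682517-150682842, was 2.71 Mb from S100A8 and 2.68 Mb from S100A9. It lies inside GOLPH3L, with HORMAD1 at 15.2 kb and CTSS, the cathepsin S gene, at 47.3 kb. Of all protein-coding genes, 78.9% and 78.6% had a peak as near as these.

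ITGAM encodes CD11b, the alpha chain of the adhesion receptor Mac-1, and spans chr16:31259975-31332877. Its nearest peak lay 414 kb away at chr16:31747348-31747696, inside KRABD5, with ZNF267 at 126 kb and AHSP, a haemoglobin chaperone gene, at 219 kb. It was the 1 peak within 1 Mb of ITGAM, and 28.0% of all genes had a peak as near.

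The regulator genes SPI1 and GFI1 lay at nearly the same distance from a peak. SPI1 spans chr11:47354860-47378547, and its nearest peak, 171 kb away at chr11:47183586-47183900, lies inside PACSIN3. ARFGAP2, at 6.71 kb, and CSTPP1, at 19.2 kb, are the other genes closest to it. Of the 10 genes SPI1 had the most peaks within 1 Mb, 4, the second nearest at 292 kb. The number of peaks within 1 Mb was counted for these 10 genes only, so it has no background over all genes. GFI1, which encodes a zinc-finger repressor, spans chr1:92473043-92486925. Its nearest peak was 174 kb away at chr1:92298455-92298942, inside GLMN and 117 bp from the low-coordinate end of RPAP2, with C1orf146 at 52.6 kb. It overlaps promoter entries of both GLMN and RPAP2, and 0 of these held the core TGATG on either strand. As many as 14.4% of protein-coding genes had a peak as near as SPI1, and 14.7% as near as GFI1.

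A wider list of 49 genes was counted in the same way. It held granulocyte and monocyte genes and regulators of blood cell formation, GATA1, RUNX1 and MYB among the latter. A peak lay in the window of 3 of the 49, or 6.12%, against 3.98% of all protein-coding genes. MYB, which encodes a transcription factor of blood progenitors, had its peak inside the gene, at chr6:135201569-135201895, 17.4 kb from the high-coordinate end. CEBPA, the gene of a factor needed for granulocyte formation, had one 16.2 kb from its low-coordinate end, at chr19:33283466-33283775. CXCR2, a neutrophil chemokine receptor gene, had one 18.9 kb away, at chr2:218106096-218106433. These were 2 of 10 regulator genes and 1 of 10 surface genes. No peak was listed for the 10 further primary granule genes, among them AZU1 and CTSG, the 11 secondary and tertiary granule genes, among them LCN2 and MMP9, or the 8 cytosolic and oxidase genes, among them CYBB. Counts this small cannot separate the list from the share over all genes. Within 100 kb of the span, 6 of the 49 genes had a peak, 12.2%, against 9.93% of all genes. The further 3 were CYBA, an oxidase subunit gene, at 52.4 kb, CSF3R, the granulocyte colony-stimulating factor receptor gene, at 79.1 kb, and SERPINB1, an elastase inhibitor gene, at 93.9 kb.

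Mouse peaks were placed by the approximate positions of Mpo, Elane, S100a8 with S100a9, and Spi1 that came with the gene list, each given to 10 kb (GRCm38). The windows ran 20 kb to each side of these positions. Gene ends and strands of the mouse were not used here, so a peak is described by its place in the window and not by the part of a gene it covers. Prtn3, Ltf, Camp, Itgam and Gfi1 had no position and were not analysed here, although Prtn3 is known to be a neighbour of Elane. For a background, chromosomes 1 to 19 and X were cut into windows of the same length, laid end to end. These tiled windows were laid without regard to genes. A share of them therefore does not say how a window compares with windows of other genes.

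**Figure D2:**
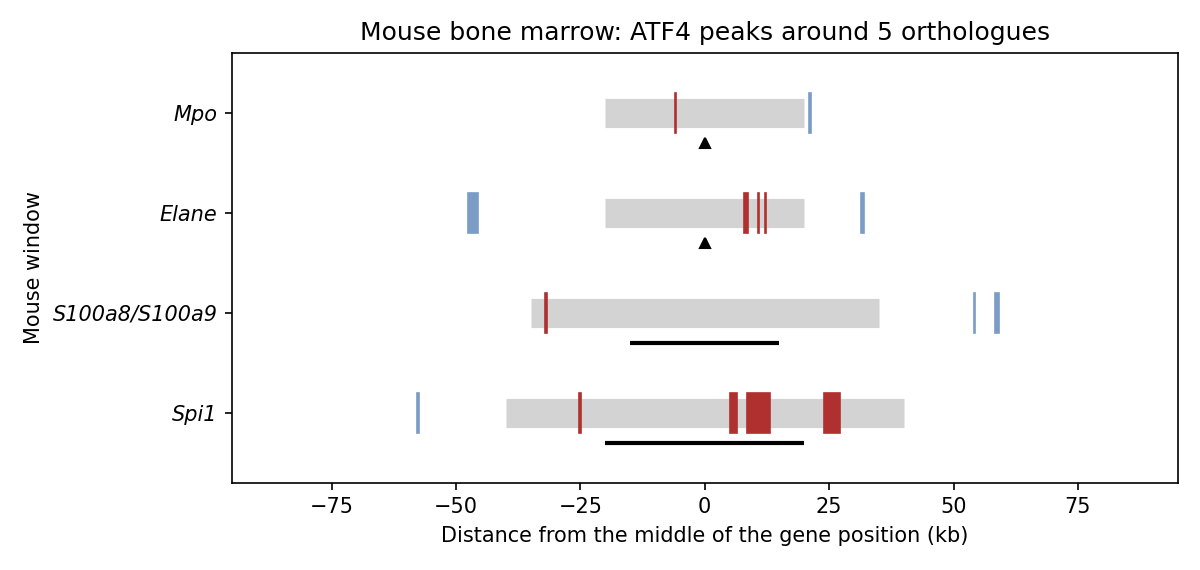
Mouse bone marrow ATF4 peaks around the placed orthologues, drawn to scale along the distance in kb from the middle of each gene position. Grey bars are the windows, black triangles and lines the positions used, red blocks the 9 peaks in the windows and blue blocks other peaks within 50 kb of the positions. The wide blocks lie in the Spi1 window, and the S100a8 and S100a9 window has 1 narrow peak near its low-coordinate edge.

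The Spi1 window, chr2:91060001-91140000, held 4 peaks. Of tiled windows of 80 kb, 73.9% had at least 1 peak and 28.4% at least 4, so this number is a common one. The peaks spanned chr2:91074667-91075196 (530 bp), chr2:91105087-91106469 (1383 bp), chr2:91108504-91113069 (4566 bp) and chr2:91123987-91127118 (3132 bp). The middle pair stood 2034 bp apart, inside the interval given for the gene. The first lay 4804 bp below that interval and the last 3987 bp above it. Of the 4 peaks, 3 were wider than 1 kb, and the 530 bp peak was narrower than the list median of 544 bp. Together they covered 9611 bp of the 80 kb, where the median tiled window had 1146 bp covered and 3.73% had as much. On chromosome 2 alone the share with as much was 4.49%. At least 3 peaks wider than 1 kb were found in 6.14% of the tiled windows. Of all 83088 mouse peaks, 1.80% were as wide as the widest in the window and 4.27% as wide as the second widest.

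The Elane window, chr10:79870001-79910000, held 3 peaks, where 53.1% of tiled windows of 40 kb had at least 1 and 19.2% at least 3. The count was 1 with a flank of 10 kb, and also with the position moved down by 10 kb, the step to which positions are given. The moved window is still 40 kb long, so its count compares with the 53.1%. For the shorter window of the 10 kb flank no share of tiled windows was worked out. The 3 peaks lay together within 5 kb on the high-coordinate side, at chr10:79897856-79898617 (762 bp), chr10:79900670-79900946 (277 bp) and chr10:79902117-79902407 (291 bp). The first of them began 7856 bp above the position given for Elane. Together they covered 1330 bp, 3.33% of the window, and 26.5% of tiled windows had as much covered. The 277 and 291 bp peaks were among the narrow ones of the list, since 96.1% and 91.9% of all mouse peaks were at least as wide.

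The Mpo window, chr11:87770001-87810000, held 1 peak of 305 bp at chr11:87783933-87784237, 5763 bp below the position given for Mpo. The share of 40 kb windows with at least 1 peak was 53.1%, so this count is near the background. A second peak, chr11:87810998-87811329 (332 bp), began 998 bp beyond the high-coordinate edge. With the position moved up by 10 kb the window held 2 peaks. Below the 305 bp peak the list used here had none for 924 kb, from 86860070 to 87783932. Whether the list used here is complete over that stretch is not known, so it is given as a value of this list and not as a feature of the region. The stretch reaches into the 1 Mb centred on Mpo, which held 11 peaks, against 23 around Elane, 41 around S100a8 and S100a9, and 39 around Spi1. No tiled windows of 1 Mb were made, so none of these counts is read as high or low. The median distance between neighbouring peaks on chromosome 11 was 4.76 kb. Only 2 of the 5273 distances on that chromosome, this one included, and 23 of 82854 on chromosomes 1 to 19 and X were as long.

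The window of S100a8 and S100a9, chr3:90650001-90720000, held 1 peak of 325 bp at chr3:90652962-90653286. Of tiled windows of 70 kb, 70.3% had at least 1 peak, and the median one had 2. The peak lay 16714 bp below the interval given for the genes, and no peak lay inside that interval. The count was 0 with a flank of 10 kb or with the positions moved up by 10 kb. The nearest peaks on the other side, chr3:90739029-90739318 (290 bp) and chr3:90743379-90744172 (794 bp), lay outside the window. Peaks covered 0.464% of the window, and 65.9% of tiled windows had as much covered.

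**Figure D3:**
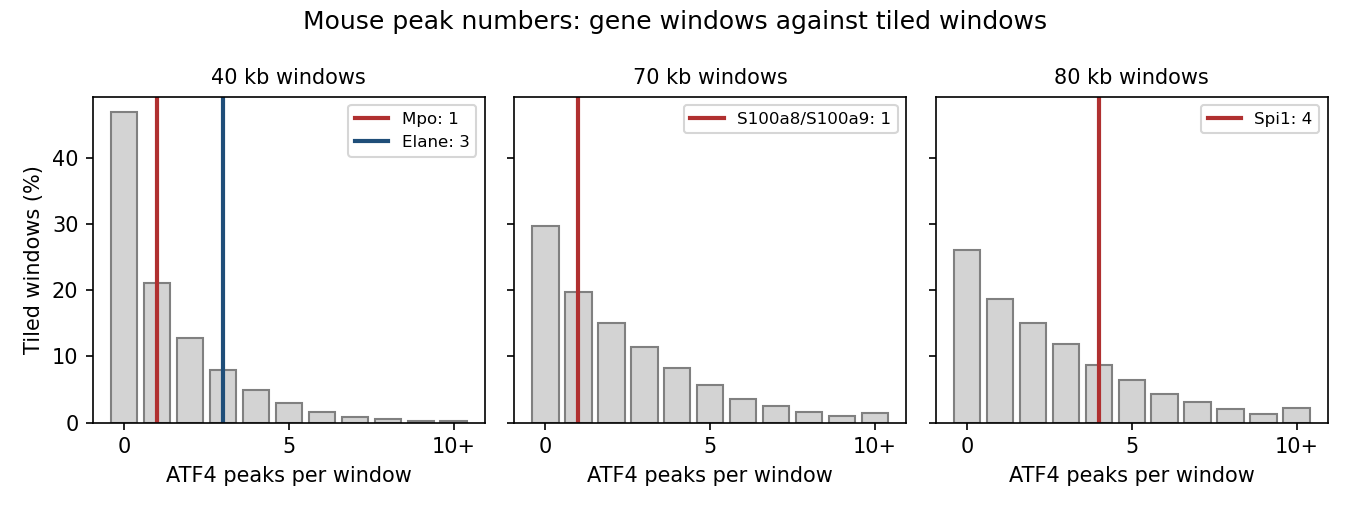
Share of tiled mouse windows (vertical axis, percent) by number of ATF4 peaks (horizontal axis), for windows of 40, 70 and 80 kb, with the last bar for 10 or more. Coloured lines mark the gene windows of the same length. Mpo with 1 and S100a8/S100a9 with 1 sit at common values, and Elane with 3 and Spi1 with 4 sit where 19.2% and 28.4% of windows had as many.

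Over the 4 windows the 9 peaks were 277 to 4566 bp wide, with a median of 530 bp against 544 bp for the whole mouse list. All 3 peaks wider than 1 kb were in the Spi1 window, and the other 6 were at most 762 bp wide. The Spi1 window held 83.1% of the 11571 bp covered in the 4 windows. In the whole list 24.2% of peaks were wider than 1 kb.

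**Figure D4:**
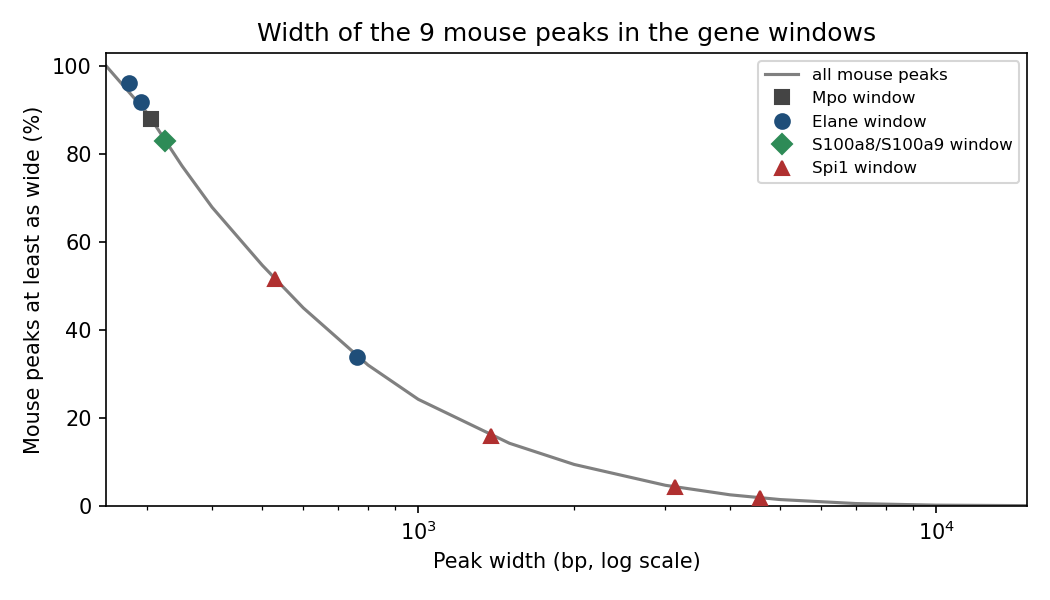
Width in bp (horizontal, log scale) of the 9 mouse peaks in the gene windows, placed on the share in percent of all mouse peaks that are at least as wide (grey line). Points are single peaks, with a symbol for each window. The 3 Spi1 peaks wider than 1 kb lie at the low end of the line, and the peaks of Mpo, S100a8/S100a9 and 2 of Elane lie at its narrow start.

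Side by side, SPI1 had 0 KG1a peaks and its mouse orthologue 4, ELANE had 0 and 3, MPO 0 and 1, and S100A8 with S100A9 0 and 1. A peak was listed in the window of 3.98% of all genes in KG1a, and in 73.9% of mouse tiles of 80 kb, 70.3% of 70 kb and 53.1% of 40 kb, so nothing particular to these genes is read from the counts. The mouse list is far longer than the KG1a list, the depth of both is unknown, and species, cell source and list length cannot be told apart.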

How the data were processed

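ATF4 ChIP and input libraries of KG1a and mouse bone marrow were used as 2 deposited peak lists, 1 per source. The submitters' processing notes name the builds GRCh38 and GRCm38 and the tools Bowtie2, MACS2, deepTools and CASAVA 1.4, without settings or a peak cutoff. Per the labels, a list compares ChIP with input of its source. As deposited it has 3 columns, chromosome, start and end, and no score. Starts were read as counted from 0 and are printed counted from 1. An overlap of at least 1 base counted. Human gene spans came from a RefSeq table (GRCh38.p14). Mouse windows were set from approximate positions. The mouse tiles ran from position 1 to the highest peak of a chromosome.

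All 10 genes were named, as were genes of the wider list with a peak within 20 kb and the 3 protein-coding genes closest to each nearest peak. The genes, lists and windows were chosen with earlier results of these data known. Depth is unknown, so no interval is given. Work was done in Python 3.11.15 with pandas 2.3.3, and the window search was tested on simulated data.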

Additional observations from a re-analysis of the deposited data

How the results depend on the processing

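The count of KG1a genes with a peak was 0 of 10 with flanks of 5 and 50 kb, by peak centre and in the widest 25% of the list, and 1, CAMP, with a flank of 100 kb. The 9 mouse peaks became 16 with a flank of 50 kb and 3, all at Spi1, when peaks wider than 1 kb or the widest 25% of the list were taken. With a flank of 10 kb there were 6, with positions moved down by 10 kb 7, and with positions moved up 9. The Spi1 count was 4 under each of these last 3 settings. The S100a8 and S100a9 count was 0 with a flank of 10 kb or positions moved up, the Elane count was 1 with a flank of 10 kb or positions moved down, and the Mpo count was 2 with positions moved up. These counts therefore depend on positions known only to 10 kb. The promoter count of 0 of 7 genes became 1 with TGATGCAA, chosen after the data were seen (0.866% of all promoters, against 0.991% for TGATGNAAT), and 2 with TGATG alone (32.9%). No paired analysis was possible because each group has 1 library.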
